A study of Rattus norvegicus with 18 samples.

Results

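The immediate early genes Fos, Fosb, Jun, Junb, Egr1, Egr3, Nr4a1, Nr4a3, Dusp1 and Zfp36 were followed in rat extensor digitorum longus (EDL), a fast-twitch muscle of the lower hindlimb. Members were the array probe sets whose only gene symbol was one of these 10, with 1 probe set per gene. Each of the 10 had exactly 1 such probe set, out of 16856 genes with a single-symbol probe set. The material was total RNA of whole EDL from 18 adult Sprague-Dawley females of the F2 generation, hybridised to Affymetrix whole-transcript arrays with 1 animal per array. The F0 founders (grandfathers) had eaten chow or a high-fat diet, and the F2 females themselves ate chow or a high-fat diet (42/45% of energy from fat) for 12 weeks. Groups are written as grandpaternal diet/own diet: chow/chow (n = 5), chow/high-fat (n = 5), high-fat/chow (n = 4) and high-fat/high-fat (n = 4). Litters and founders of the animals are not given in the labels, so p-values measure the spread between these females only, and animals that shared a litter cannot be told apart from others.

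Immediate early genes are transcribed within minutes of a stimulus, without new protein synthesis, because the factors that switch them on are already present in the cell. Serum response factor with its partners, acting at CArG boxes, and CREB, acting at cAMP response elements, receive the calcium, cAMP and MAP kinase signals that contraction, stretch, injury and hormones set off in muscle. Most of the products are transcription factors for a second wave of genes, and some shut the response off again, either by dephosphorylating MAP kinases or by destroying the short-lived messages. These genes are known to respond to exercise and to handling of muscle, and their RNA decays quickly.

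Promoter windows of the members were read from RefSeq (GRCr8), 250 bases before to 50 after the listed start, to show the letters through which SRF and CREB are known to act. Windows were found for 6 members (Fosb, Junb, Egr1, Nr4a1, Dusp1 and Zfp36) and not for Fos, Jun, Egr3 and Nr4a3. Shown are Egr1, the 2 genes Junb and Dusp1 that varied with it between animals, and Nr4a1, whose correlation with it was near 0, each 5′ to 3′ on the gene's own strand. Capitals mark exact matches, on either strand, to the CArG box, TGACG (the core of a cAMP response element, also counted inside the full TGACGTCA), the EGR sites GCGGGGGCG and GCGTGGGCG, and the AP-1 site TGAGTCA.
Egr1, chr18:26736828-26737127, plus strand: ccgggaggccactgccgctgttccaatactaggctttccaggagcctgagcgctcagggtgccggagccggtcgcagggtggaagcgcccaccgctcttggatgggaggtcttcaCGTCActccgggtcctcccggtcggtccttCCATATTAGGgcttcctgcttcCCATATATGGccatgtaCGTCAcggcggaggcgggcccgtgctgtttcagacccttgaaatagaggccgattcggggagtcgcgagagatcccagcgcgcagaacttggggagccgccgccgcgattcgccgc
Junb, chr19:40080876-40081175, plus strand: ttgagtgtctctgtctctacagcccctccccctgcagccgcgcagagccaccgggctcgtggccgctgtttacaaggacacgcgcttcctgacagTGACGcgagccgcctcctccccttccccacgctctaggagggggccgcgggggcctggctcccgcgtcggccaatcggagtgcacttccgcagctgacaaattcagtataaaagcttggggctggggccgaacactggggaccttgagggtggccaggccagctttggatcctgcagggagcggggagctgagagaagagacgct
Dusp1, chr10:17184603-17184902, plus strand: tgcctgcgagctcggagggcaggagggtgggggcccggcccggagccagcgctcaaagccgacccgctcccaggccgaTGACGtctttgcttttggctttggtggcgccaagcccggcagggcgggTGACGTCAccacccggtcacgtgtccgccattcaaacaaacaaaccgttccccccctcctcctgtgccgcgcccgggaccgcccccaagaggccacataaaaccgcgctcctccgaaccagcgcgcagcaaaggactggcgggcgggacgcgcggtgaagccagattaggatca
Nr4a1, chr7:134259888-134260187, plus strand: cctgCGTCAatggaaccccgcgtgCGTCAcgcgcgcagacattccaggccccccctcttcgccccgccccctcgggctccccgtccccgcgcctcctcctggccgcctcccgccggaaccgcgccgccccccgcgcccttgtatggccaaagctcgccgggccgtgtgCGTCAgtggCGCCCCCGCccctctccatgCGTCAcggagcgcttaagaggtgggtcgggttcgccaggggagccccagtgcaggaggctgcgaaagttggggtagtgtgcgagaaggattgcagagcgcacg
Egr1 held 2 CArG boxes, at -105 to -96 and -83 to -74 counted from the start, and 2 TGACG matches. Zfp36 held the only other CArG match of the 6 windows, at -32 to -23, and 1.64% of all 33469 promoter windows held one. Dusp1 held the full TGACGTCA at -124 to -117, against 1.83% of all windows, with 3 TGACG matches of which 2 lie inside it. TGACG was found in 4 of 6 members, with 1 match in Junb and 4 in Nr4a1, against 21.2% of windows, and GCGGGGGCG in Nr4a1 and Zfp36, against 2.73%. TGAGTCA and GCGTGGGCG matched 0 of 6 members, against 4.63% and 0.544% of windows, and TATAAA, not in capitals here, matched 2 (Fosb and Junb), against 14.2%. These matches describe letters, not occupied sites.

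The 18 arrays had median deposited intensities between 55.02 and 73.97, and the lowest medians were those of chow/high-fat replicates 5 and 4. Every chow/high-fat array (55.02 to 66.45) was dimmer by median than every high-fat/high-fat array (67.52 to 73.97). Deposited readings of these groups carry that difference. Intensities below are as deposited. Log2 values are log2(intensity + 16) after quantile normalization, a scale that understates the change of dim genes. Of the 10 members, 9 passed the filter on low values that left 12642 genes for the tests. Fosb, with a mean of 5.25 log2 against a limit of 5.28, missed it and is described without it. Defining markers of skeletal muscle were bright in every animal, with Acta1 (skeletal actin) between 8052 and 10432, and so were those of fast fibres, with Tnnt3 (fast troponin T) between 6994 and 8750 and Pvalb (parvalbumin) between 4525 and 6061. Of the markers of endothelium, leukocytes, fibroblasts, smooth muscle, fat, red blood cells, Schwann cells and satellite cells, 0 values were at 0. In RNA of a whole muscle, fewer cells of a type and less RNA per cell cannot be told apart.

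The AP-1 subunits came first. Fos, the dimer partner that is nearly silent at rest and surges after stimulation, read 166, 46.3, 49.6, 235 and 98.4 in the chow/chow animals and 574, 57.1, 120.0, 47.3 and 37.2 in the chow/high-fat animals. It read 37.7, 53.7, 83.5 and 43.2 in the high-fat/chow animals and 140.5, 111, 87.4 and 233 in the high-fat/high-fat animals. The brightest animal, chow/high-fat replicate 1, was 15.4 times the dimmest, and the 4 high-fat/high-fat animals all lay above the 4 high-fat/chow animals. Fosb, a paralogue of Fos, gave dim readings of 23.2, 19.4, 24.8, 36.8 and 20.7 in chow/chow and 30.2, 24.2, 23.8, 11.6 and 17.2 in chow/high-fat. Its readings were 17.2, 13.53, 14.7 and 17.5 in high-fat/chow and 25.8, 23.8, 21.9 and 47.2 in high-fat/high-fat. On the normalized scale the 4 high-fat/chow animals lay below every high-fat/high-fat animal and below every chow/chow animal.

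Jun, the AP-1 subunit that can also pair with itself, varied little, between 1262 and 2095 over the 18 animals with a median of 1625. All 4 groups overlapped. Junb, which dampens AP-1 activity at many Jun targets and supports muscle mass in adult fibres, read 184, 122, 131, 214 and 170.0 in chow/chow and 206, 162.2, 218.02, 101 and 102 in chow/high-fat. It read 109.97, 102, 153 and 170.6 in high-fat/chow and 192.99, 197, 136 and 229 in high-fat/high-fat. As deposited, high-fat/chow replicates 1 and 2 and chow/high-fat replicates 4 and 5 were the lowest, and the groups overlapped. Their arrays also had the lowest medians (55.02 to 62.28). On the normalized scale high-fat/chow replicate 2 was the lowest (6.997), followed by chow/chow replicate 2 (7.02) and chow/high-fat replicate 4 (7.05).

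The zinc-finger factors of the early growth response family followed. Egr1, which binds GC-rich sites and is switched on through CArG boxes, read 722, 236, 452, 941 and 883 in chow/chow and 1164, 497, 748, 383 and 221 in chow/high-fat. It read 136, 389, 361 and 349 in high-fat/chow and 737, 446, 456 and 768 in high-fat/high-fat. The highest animal was 8.53 times the lowest, and the lowest was high-fat/chow replicate 1. On the normalized scale each group overlapped with every other. As deposited, the highest high-fat/chow reading (389) lay below the lowest high-fat/high-fat reading (446). The 389 came from replicate 2, whose array median (60.21) was below those of all high-fat/high-fat arrays (67.52 to 73.97). After normalization that animal (8.80) lay above high-fat/high-fat replicate 2 (8.68). The share of all genes separated in this way as deposited was not counted. Egr3, the family member needed for muscle spindles to form, was dim and even, with 25.5, 21.8, 32.2, 38.4 and 33.5 in chow/chow and 38.4, 35.7, 30.5, 32.7 and 33.9 in chow/high-fat. It read 26.1, 25.4, 33.9 and 27.1 in high-fat/chow and 29.7, 28.3, 29.7 and 39.7 in high-fat/high-fat. Its 4 groups overlapped, and its highest reading was 1.82 times its lowest.

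Nr4a1 (Nur77) and Nr4a3 (Nor-1) encode orphan nuclear receptors that beta-adrenergic signals and contraction induce in muscle and that act on genes of glucose and fat metabolism. Nr4a1 read 1042, 1125, 882, 768 and 719.7 in chow/chow and 1057, 646, 1138, 654 and 823 in chow/high-fat. It read 754, 670.0, 1046 and 1136 in high-fat/chow and 1201, 1025, 788 and 944 in high-fat/high-fat. Its highest reading was 1.86 times its lowest, and its 4 groups overlapped. Nr4a3 read 76.4, 55.1, 37.1, 60.9 and 47.8 in chow/chow and 124, 45.9, 41.7, 32.8 and 44.4 in chow/high-fat. It read 42.1, 21.98, 45.6 and 22.8 in high-fat/chow and 114, 40.7, 33.6 and 119.7 in high-fat/high-fat. Chow/high-fat replicate 1 stood above all others, and the high-fat/high-fat group was split between replicates 1 and 4, which were high, and replicates 2 and 3, which were not.

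The feedback members were Dusp1, a nuclear phosphatase that inactivates p38, JNK and ERK kinases, and Zfp36 (tristetraprolin), which binds AU-rich elements and brings short-lived messages to decay. Dusp1 read 2313, 1617, 2031, 1951 and 2006 in chow/chow and 3111, 1521, 2027, 1377 and 1199 in chow/high-fat. It read 981, 1419.6, 2376 and 1834 in high-fat/chow and 2158, 2089.9, 2228 and 2679.7 in high-fat/high-fat. The highest reading was that of chow/high-fat replicate 1, the lowest that of high-fat/chow replicate 1, and the groups overlapped. Zfp36 read 400.3, 483, 406, 368 and 368 in chow/chow and 539.6, 509, 549, 300.5 and 290.0 in chow/high-fat. It read 291, 239.6, 481 and 434 in high-fat/chow and 569, 366, 351 and 594 in high-fat/high-fat. Both own high-fat groups were split, with replicates 1 to 3 of chow/high-fat and replicates 1 and 4 of high-fat/high-fat at the top.

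**Figure D1:**
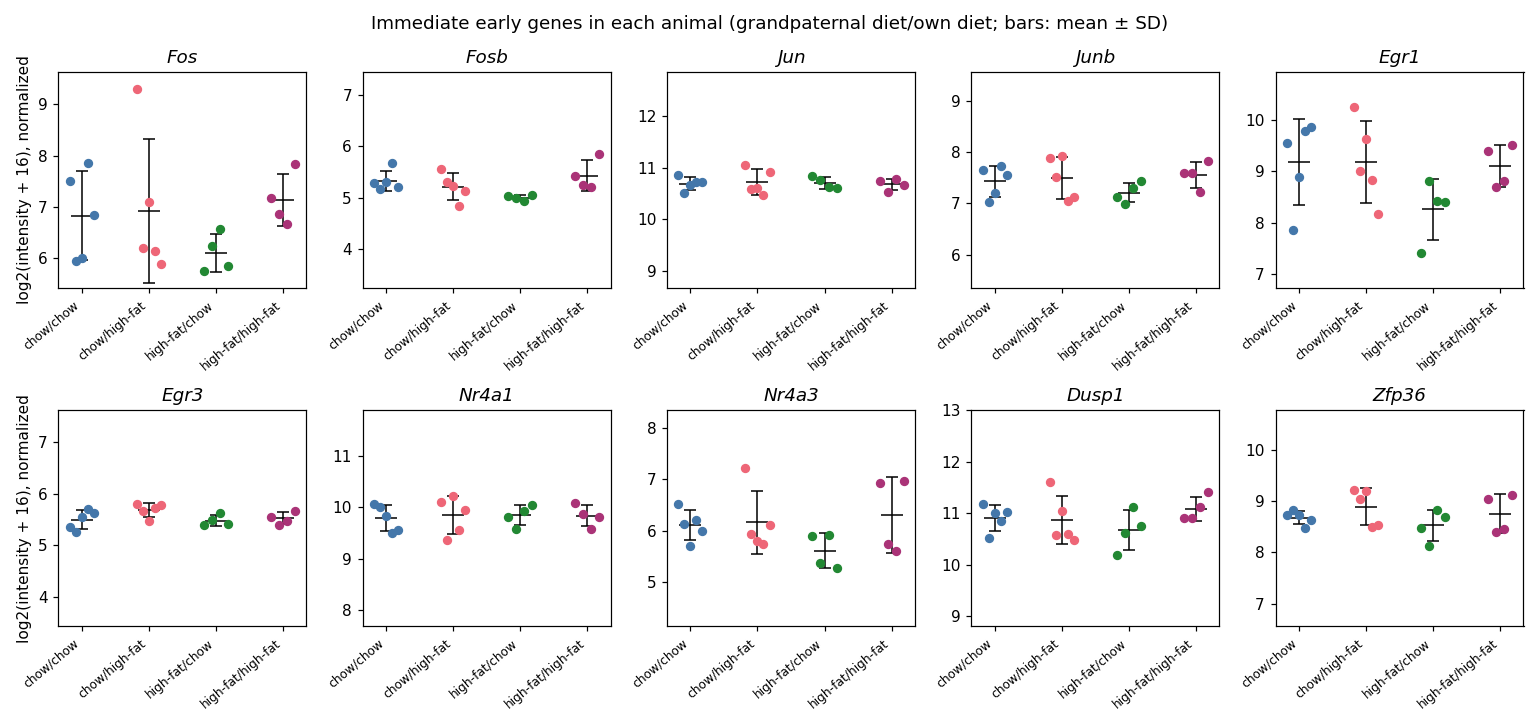
Normalized log2(intensity + 16) of the 10 immediate early genes in each of 18 animals (points), by group (grandpaternal diet/own diet), with the group mean and SD; every panel spans the same log2 height. Fos spans 3.52 log2 units and Egr1 2.84, while Jun spans 0.60 and Egr3 0.55.

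Most members had the same lowest group, but the group means lay close together. The lowest group mean was that of high-fat/chow for 8 of the 10 members (all but Jun and Nr4a1), against 26% of all genes tested. The highest was high-fat/high-fat for 5 members, chow/high-fat for 3 and chow/chow and high-fat/chow for 1 each. Fos averaged 6.11 ± 0.37 (SD, n = 4) in high-fat/chow, 6.83 ± 0.86 (n = 5) in chow/chow, 6.92 ± 1.40 (n = 5) in chow/high-fat and 7.14 ± 0.51 (n = 4) in high-fat/high-fat. No neighbours in that order differed by more than the within-group SD of 0.93. Egr1 averaged 8.26 ± 0.60 in high-fat/chow, then 9.10 ± 0.41 in high-fat/high-fat, 9.17 ± 0.80 in chow/high-fat and 9.18 ± 0.83 in chow/chow. Its step of 0.85 from high-fat/chow to the next group exceeded the within-group SD of 0.70, and the 3 upper groups lay closer together than that. Egr3 was the other of the 2 members with a step above its SD, 0.17 against 0.14, between high-fat/high-fat and chow/high-fat. The highest and lowest group means differed by more than the SD for 8 of 10 members, which 60.1% of all genes also did.

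Animals of one group differed more in 7 of these genes than in 95% of all genes tested. The within-group SD is the residual SD of the fit of the 4 group means, in log2 units. It was 0.93 for Fos, which only 5 of the 12642 genes exceeded. For Egr1 it was 0.70, exceeded by 28 genes, and for Nr4a3 0.52, exceeded by 80 genes. Dusp1 had an SD of 0.35, Junb of 0.31, Zfp36 of 0.30 and Nr4a1 of 0.27. These 7 of the 9 tested members lay above the 95th percentile of all genes, 0.27, where by construction 5.01% of genes lie, and the median gene had an SD of 0.14. Jun, with 0.17, stood at percentile 71.0 and Egr3, with 0.14, at percentile 56.4. Fosb, outside the filter, had an SD of 0.22. Without chow/high-fat replicate 1 the SD of Fos was 0.62 (percentile 99.7), that of Egr1 0.65 and that of Nr4a3 0.43, and 7 members were still above the 95th percentile. Without the 2 arrays of lowest median 5 members were above it, with Junb at percentile 93.6 and Zfp36 at 94.0. Chow/high-fat was the widest group for 5 of 10 members, with a median member SD of 0.39 against 0.25 in chow/chow, 0.25 in high-fat/chow and 0.27 in high-fat/high-fat. Over all genes the medians of the 4 groups were 0.13, 0.11, 0.13 and 0.12 in that order.

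**Figure D2:**
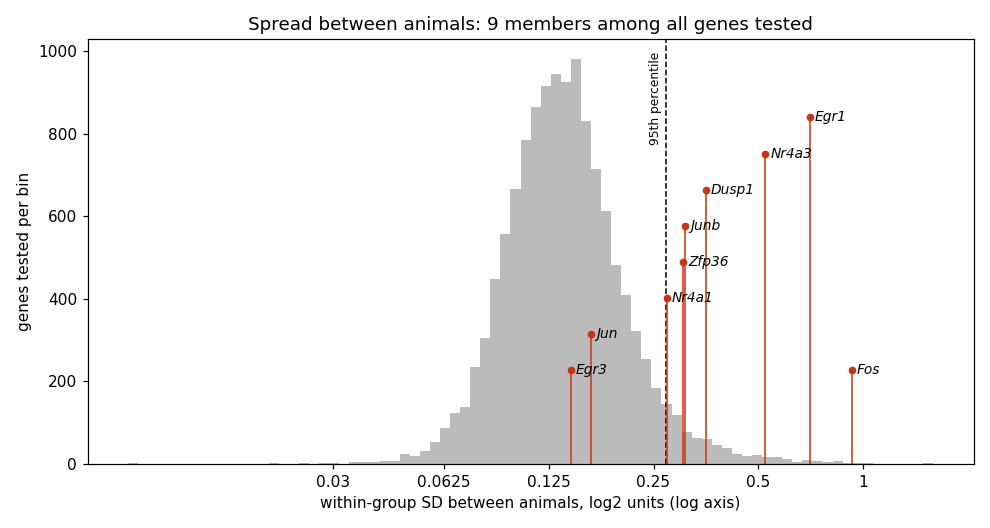
Histogram of the within-group SD between animals (log axis, log2 units) of the 12642 genes tested, in grey, with the 9 tested immediate early genes as red markers whose height only separates the labels. The 7 members right of the dashed line (95th percentile, 0.27) run from Nr4a1 at 0.27 to Fos at 0.93.

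Single animals were high or low across the family on the normalized scale. Chow/high-fat replicate 1 was the highest of 18 animals for 7 of the 10 members (Fos, Jun, Egr1, Egr3, Nr4a3, Dusp1 and Zfp36) and among the 3 highest for all 10. Chow/high-fat replicate 3 was the highest for Junb and Nr4a1. High-fat/high-fat replicate 4 was the highest for Fosb and among the 3 highest for 6. At the other end, high-fat/chow replicate 1 was the lowest for 3 members, and high-fat/chow replicate 2 and chow/high-fat replicate 4 for 2 each. Chow/high-fat replicate 1 also had the highest mean of the 4 slow fibre markers, 11.23 against 9.17 to 11.21 in the other animals. Its mean of 3 red blood cell markers, 8.996 against 6.97 to 8.58, and of 2 Schwann cell markers, 8.49 against 7.95 to 8.35, were the highest too. Its leukocyte mean ranked 17 of 18 and its fibroblast mean 15. The part of these in its immediate early readings was not tested.

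**Figure D3:**
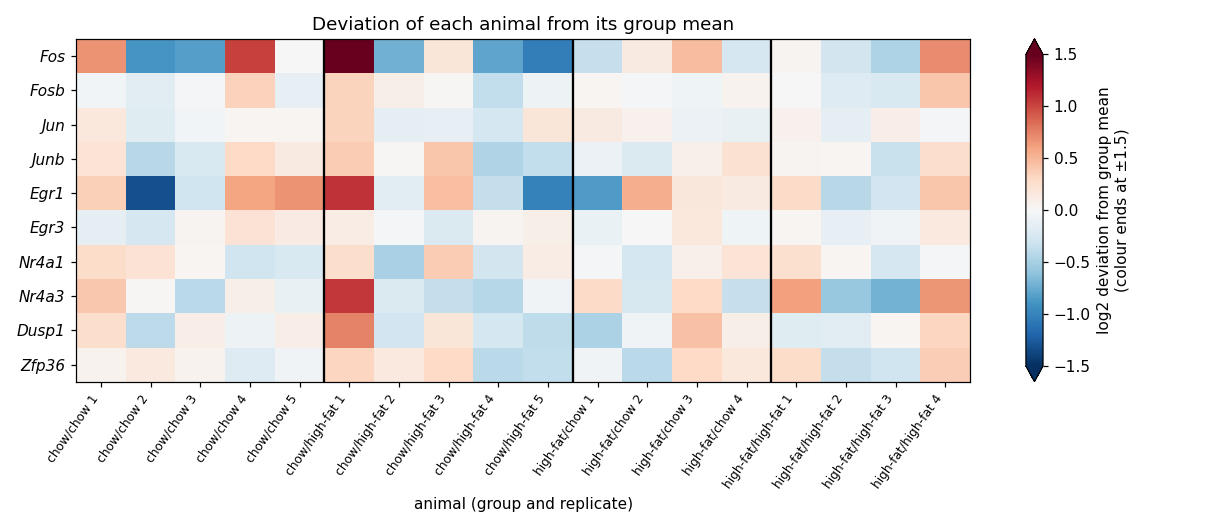
Deviation of each animal (columns, by group and replicate) from its group mean, in log2 units, for the 10 immediate early genes (rows); red is above and blue below. In chow/high-fat replicate 1 all 10 genes lie above the group mean, and in chow/high-fat replicate 4 only 1 does.

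Within groups several members, above all Fos, Egr1, Junb and Dusp1, varied together from animal to animal. Each animal's deviation from its group mean was correlated for the 45 pairs of members over 18 animals, with a two-sided permutation test within groups and Benjamini-Hochberg adjustment over the 45 pairs. The median Pearson r was 0.42, 43 pairs were above 0, and 40% of member pairs had r above 0.5 against 4.44% of all pairs of genes tested, whose median r was -0.0001. Of the pairs, 8 passed at an adjusted permutation p under 0.05 for r, all of them positive, and 6 for Spearman's rho. Fos and Egr1 were the closest pair, with r = 0.80 (permutation p = 0.00013, adjusted p = 0.00585) and rho = 0.85 (permutation p = 0.00017, adjusted p = 0.00765). Without the 2 animals farthest from the median of Fos, r was 0.77. Fos and the phosphatase Dusp1 had r = 0.78 (permutation p = 0.00142, adjusted p = 0.0179) and rho = 0.71 (permutation p = 0.00271, adjusted p = 0.0305), and r was 0.75 without the 2 farthest animals. Egr1 went with Dusp1 (r = 0.76, rho = 0.70) and with Junb (r = 0.76, rho = 0.77), and Fos with Junb (r = 0.76, rho = 0.86), and all 3 pairs passed by both measures. Junb with Dusp1 (r = 0.64, permutation p = 0.0130, adjusted p = 0.0651) did not pass. The other 3 pairs were Fos with Nr4a3 (r = 0.70) and with Fosb (r = 0.69), neither of which passed by rho, and Fosb with Junb (r = 0.70), which did.

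Nr4a1, Egr3, Jun and Zfp36 were in none of the pairs that passed. Nr4a1 had r = 0.013 with Egr1, 0.25 with Fos and -0.40 with Egr3 (permutation p = 0.1496, adjusted p = 0.259), and its highest was 0.52 with Zfp36. Jun reached 0.56 with Nr4a3, Zfp36 0.60 with Junb and Egr3 0.44 with Egr1. The number of pairs that passed was decided by few arrays, while the median r moved less. It was 8 over all animals, 2 without chow/high-fat replicate 1 (median r 0.27), 1 without chow/chow replicate 2 (0.47) and 0 without the 2 arrays of lowest median (0.41). It was 5 without chow/high-fat replicate 5, without high-fat/high-fat replicate 1 or without high-fat/high-fat replicate 4. Without chow/high-fat replicate 1, r was 0.79 for Fos with Egr1, 0.79 for Fos with Junb, 0.60 for Fos with Dusp1, 0.68 for Egr1 with Dusp1 and 0.71 for Junb with Egr1. The sample titles carry a well whose column takes the values 5, 7 and 9, which the labels do not explain. Within the 8 animals of column 5 the median r was 0.63 and Fos and Egr1 had r = 0.87. Within the 6 of column 7 these were 0.28 and 0.77, and column 9 held 4 animals, too few for a value.

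**Figure D4:**
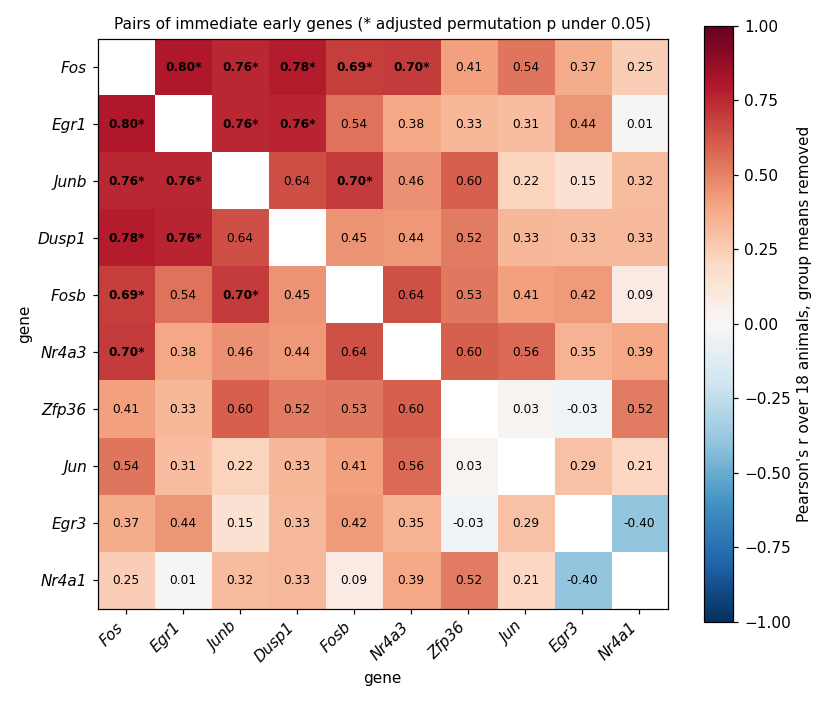
Pearson's r between each pair of the 10 immediate early genes over 18 animals, after removing group means; asterisks mark the 8 pairs with an adjusted permutation p under 0.05. The 6 pairs among Fos, Egr1, Junb and Dusp1 run from 0.64 to 0.80, of which Junb with Dusp1 (0.64) did not pass, and Nr4a1 with Egr3 has the lowest (-0.40).

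The first comparison asked whether the female's own high-fat diet altered these genes, averaged over both lineages. None of the 9 tested members passed (limma, Benjamini-Hochberg over 12642 genes), where 0.0158% of all genes did, and 0 of 9 had an unadjusted p under 0.05, against 6.73% of genes. All 9 point estimates were above 0, against 48.3% of all genes, with a median of 0.20 log2 against -0.0028 over all genes. Members that vary together between animals are not independent, so this count is a description. Fos differed by 0.56 ± 0.38 (SE, 95% interval -0.23 to 1.35, limma adjusted p = 0.834), Egr1 by 0.42 ± 0.29 (-0.18 to 1.02, adjusted p = 0.836) and Nr4a3 by 0.37 ± 0.21 (-0.077 to 0.82, adjusted p = 0.807). Zfp36 (0.22), Junb (0.20), Dusp1 (0.18) and Egr3 (0.12) gave smaller differences, and Nr4a1 (0.022) and Jun (0.00036) lay near 0. The intervals were -0.16 to 0.16 for Jun and -0.22 to 0.26 for Nr4a1, and that of Fos allowed a rise of more than 2-fold as well as a small fall. Without chow/high-fat replicate 1 Fos was at 0.27, Egr1 at 0.28, Nr4a3 at 0.24 and Dusp1 at 0.092, and the median at 0.16. Without the 2 arrays of lowest median, both chow/high-fat, the estimates were larger instead, with Fos at 0.87, Egr1 at 0.65, Zfp36 at 0.35, Junb at 0.34 and Dusp1 at 0.29 and a median of 0.32. There 5 of 10 members (Fos, Fosb, Junb, Egr1 and Zfp36; Fosb passed the filter in that fit) had an unadjusted p under 0.05, against 8.14% of genes, and 0 passed after adjustment (limma adjusted p of 0.403 at the smallest). With 1 array left out, 0 to 2 of 9 members had an unadjusted p under 0.05, against 5.06% to 9.17% of genes. Within well columns 5 and 7, which compared both lineages, the difference was 0.44 and 1.23 for Fos and 0.34 and 1.08 for Egr1. For Nr4a1 it was -0.094 and 0.0060. Column 7 held 6 arrays, of which 2 were of chow-fed animals. Column 9, with 4 arrays, compared the high-fat lineage alone, so its values are not of the average. They were 1.16 for Fos, 0.65 for Egr1 and -0.070 for Nr4a1. Leukocyte markers (7 of 7 tested) and fibroblast markers (5 of 5) were lower on the own high-fat diet with a median of -0.20 each and 0 called. Red blood cell markers (3 of 3, median 0.24), slow fibre markers (4 of 4, 0.13) and smooth muscle markers (3 of 3, 0.11) were higher, also with 0 called. The part of these markers in the result was not tested.

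By lineage, the own-diet estimates of Fos, Egr1, Nr4a3 and Dusp1 were larger in the high-fat lineage. In the high-fat lineage 7 of 9 members were higher, against 49.6% of all genes, with a median of 0.34 against -0.0013, and 0 of 9 passed, as did 0% of all genes. Fos was 2.04-fold higher (log2 1.03 ± 0.56 SE, 95% interval -0.14 to 2.20, limma adjusted p = 0.614), and Egr1 1.80-fold (0.85 ± 0.43, -0.048 to 1.74, adjusted p = 0.582). Nr4a3 was 1.61-fold higher (0.69 ± 0.32, 0.022 to 1.36, limma adjusted p = 0.522), the 1 member of 9 with an unadjusted p under 0.05, against 9.25% of all genes. Dusp1 was higher by 0.41 (adjusted p = 0.600 by limma), Junb by 0.34 and Zfp36 by 0.23, while Jun (-0.033) and Nr4a1 (-0.0087) were not. On the normalized scale, of the 10 members the 2 Fos paralogues had groups without overlap, with all high-fat-fed animals higher, against 2.06% of all genes. The unadjusted count was 4 of 9 without chow/high-fat replicate 1 (Fos, Egr1, Nr4a3 and Dusp1, against 9.44% of genes) and 4 of 10 without the 2 arrays of lowest median (against 9.33%). It was 0 of 9 without high-fat/chow replicate 4 (against 9.5% of genes), high-fat/high-fat replicate 1 (12.5%) or high-fat/high-fat replicate 4 (6.71%). For Fosb, fitted with no filter on low values over 16856 genes, the difference was 0.43 ± 0.14 (limma unadjusted p = 0.00698, adjusted p = 0.476). Slow fibre markers moved the same way, 4 of 4 higher with a median of 0.59 and summed intensities of 2862 to 7924 in high-fat/chow and 2662 to 10151 in high-fat/high-fat. Smooth muscle markers were also higher (3 of 3, median 0.20), while leukocyte markers (7 of 7, -0.21) and fibroblast markers (5 of 5, -0.19) were lower. Of these markers 0 were called, and their part was not tested.

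In the chow lineage 7 of 9 were higher, against 48.6% of genes, with a median of 0.053 against -0.0031, and again 0 of 9 and 0% of all genes passed. Fos differed by 0.094 (95% interval -0.96 to 1.14), Egr1 by -0.0088 (-0.81 to 0.79) and Dusp1 by -0.045. Egr3 was higher by 0.19 ± 0.089 (limma adjusted p = 1), the 1 member with an unadjusted p under 0.05, against 4.8% of genes, and 3 of the 5 high-fat-fed animals lay above all chow-fed ones. No member had groups without overlap, against 0.419% of genes with the high-fat-fed animals higher and 0.34% with them lower. Without chow/chow replicate 1, 2 or 3 or chow/high-fat replicate 1, 2, 4 or 5, 0 of 9 members had an unadjusted p under 0.05. In these fits 3.64% to 7.15% of genes had one. Each other fit with 1 array left out had Egr3 alone, against 3.84% to 5.07% of genes. Without the 2 arrays of lowest median Zfp36 alone had one, 1 of 10, against 4.01%. The median was -0.049 without chow/high-fat replicate 1 and 0.19 without the 2 arrays of lowest median. Slow fibre markers were lower in 4 of 4 in this lineage, with a median of -0.30. Leukocyte markers (6 of 7, median -0.17) and fibroblast markers (5 of 5, -0.22) were lower too. Red blood cell markers were higher (3 of 3, median 0.35). Of these markers 0 were called, and their part was not tested. The difference between the lineages was tested as the interaction of own and grandpaternal diet, in which 0 of 9 members and 0% of all genes passed, and 0 of 9 had an unadjusted p under 0.05, against 6.83% of genes. Its estimates, the own-diet difference in the high-fat lineage minus that in the chow lineage, were above 0 for 6 of 9, against 51.1% of genes. They were 0.93 for Fos (95% interval -0.64 to 2.51), 0.85 for Egr1 (-0.34 to 2.052) and 0.64 for Nr4a3 (-0.26 to 1.53). Dusp1 was at 0.46 (-0.15 to 1.07), with the smallest limma adjusted p of the 9, 0.777. Fosb, fitted with no filter on low values over 16856 genes, was at 0.54 ± 0.19 (SE, limma unadjusted p = 0.0108, adjusted p = 0.707). Without chow/high-fat replicate 1, Fos, Nr4a3 and Dusp1 had an unadjusted p under 0.05 in the interaction, against 9.81% of genes, and without chow/chow replicate 2 Egr1 did, against 6.35%, and 0 members passed after adjustment.

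The other comparisons asked whether the grandfather's diet altered these genes in females on the same diet. They use the same 4 groups, so they share animals with the comparisons above and are not independent of them. At own chow 2 of 9 members were higher in the high-fat lineage, against 49.5% of genes, with a median of -0.22 against -0.0017. Here too 0 of 9 passed, where 0.00791% of genes did. Egr1 was lower, with a log2 difference of -0.93 ± 0.41 (SE, 95% interval -1.77 to -0.078, limma adjusted p = 0.547), a ratio of 0.526, and was the 1 member with an unadjusted p under 0.05, against 8.75% of genes. Fos was at -0.72 (-1.84 to 0.39), Nr4a3 at -0.49, Dusp1 at -0.24 and Junb at -0.22, all with high-fat/chow as the lower group, and Jun (0.017) and Nr4a1 (0.053) were near 0. Without chow/chow replicate 1, 4 or 5, 0 of 9 had an unadjusted p under 0.05, against 6.32%, 8.22% and 8.69% of genes. The same held without high-fat/chow replicate 1 (12.4%), and each other fit with 1 array left out had Egr1 alone. Without the 2 arrays of lowest median Egr1 and Fosb had one, 2 of 10, against 8.88%. All 4 high-fat/chow animals were below the chow/chow mean for Fos, Egr1, Nr4a3 and Fosb. The share of all genes with this pattern was not counted, so it is a description only. Of the 10, Fosb alone had groups without overlap, lower in the high-fat lineage, against 1.75% of genes. With no filter its difference was -0.32 ± 0.13 (limma unadjusted p = 0.0271, adjusted p = 0.596). Slow fibre markers were lower in 4 of 4 here, with a median of -0.79 and 0 called; their part was not tested.

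At own high-fat diet 4 of 9 members were higher in the high-fat lineage, against 50.4% of genes, with a median of -0.0081 against 0.0011. None of the 9 passed, as for 0% of all genes, and 0 of 9 had an unadjusted p under 0.05, against 13.3% of genes. Fos differed by 0.21 (95% interval -0.90 to 1.33), Egr1 by -0.072 (-0.92 to 0.78) and Egr3 by -0.17 (limma adjusted p = 0.450). No member had groups without overlap, against 2.37% of genes higher and 2.34% lower. Without chow/high-fat replicate 1 the median was 0.15 and 2 of 9 members (Fos and Dusp1) had an unadjusted p under 0.05, against 15.4% of genes, and without the 2 arrays of lowest median the median was -0.10. Averaged over both own diets, 1 of 9 was higher, against 48.8% of genes, with a median of -0.094 against -0.0027. In that average 0 of 9 passed, against 0.198% of genes, and 0 of 9 had an unadjusted p under 0.05, against 14.6%. Egr1 had the lowest estimate, -0.50 ± 0.29 (95% interval -1.10 to 0.10, limma adjusted p = 0.427), and Fos was at -0.26 (-1.04 to 0.53), or 0.040 without chow/high-fat replicate 1. When the 2 arrays of lowest median were left out, Egr1 was at -0.73, Fos at -0.56, Zfp36 at -0.27 and Junb at -0.22, and Egr1 and Zfp36, 2 of 10 members, had an unadjusted p under 0.05, against 13.9% of genes. Egr1 alone had one without chow/chow replicate 2 (-0.66, against 13.7% of genes) or without chow/high-fat replicate 5 (-0.63, against 14.4%), and 0 members passed after adjustment in these fits.

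**Figure D5:**
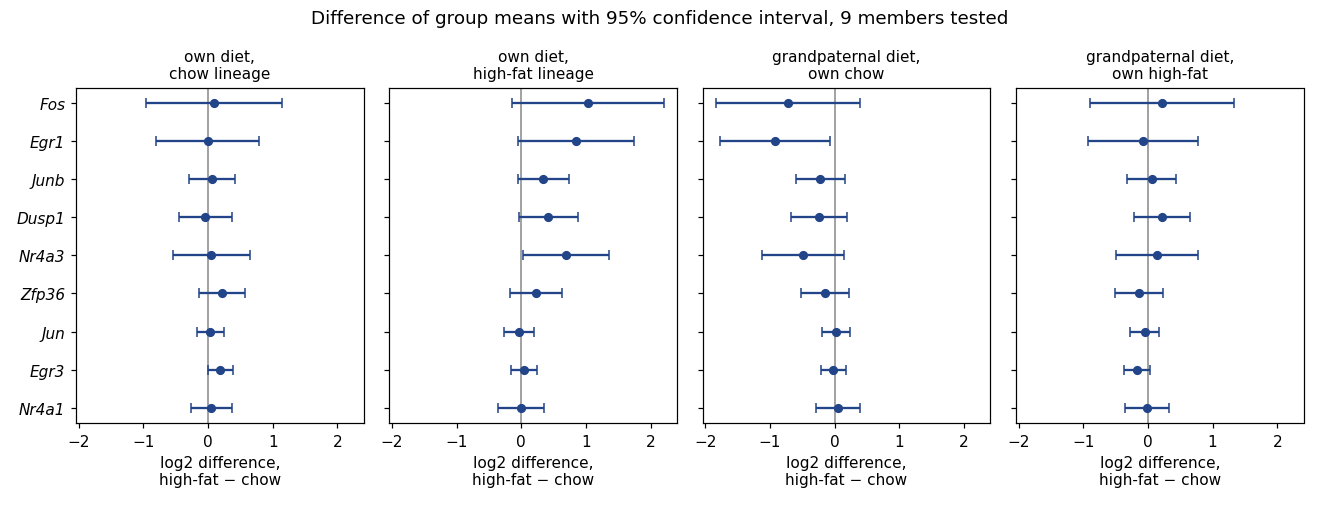
Log2 difference of group means (high-fat minus chow) with its 95% confidence interval for the 9 tested members, for both contrasts of the own diet and both of the grandpaternal diet. The intervals of Egr1 at own chow (-1.77 to -0.078), Nr4a3 in the high-fat lineage (0.022 to 1.36) and Egr3 in the chow lineage (0.0053 to 0.38) leave out 0, and 0 members pass after adjustment.

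Genes around the family, taken from lists by their role, gave 0 calls for the own diet average, and their counts are descriptions. Of all genes tested, 48.3% were higher in that comparison, with a median of -0.0028, and 5.01% had a within-group SD above the 95th percentile. Of 21 other immediate early transcription factors tested, 17 were higher on the own high-fat diet with a median of 0.059, and 6 had a within-group SD above the 95th percentile. By lineage, 12 of the 21 were higher in the chow lineage (median 0.053) and 17 in the high-fat lineage (median 0.15), against 48.6% and 49.6% of genes. The 3 of smallest p in the own diet average were Csrnp1 (0.21), a nuclear protein induced by growth signals, Klf10 (0.26), a TGF-beta-inducible zinc-finger factor, and Ier5 (0.13). Of 28 other early signalling and RNA decay genes 18 were higher (median 0.041) and 6 had a wide spread. The 3 of smallest p were Nfkbia (0.24), the inhibitor of NF-kappa-B, Plk2 (-0.29), a polo-like kinase that was lower, and Rgs2 (0.16), which restrains G-protein signals. Of 13 MAP kinase phosphatases and Sprouty genes 7 were higher, with Dusp8 at 0.19, Dusp2 at -0.16 and Dusp4 at 0.15, and 2 had a wide spread. Of 35 genes of the SRF, CREB and MAP kinase machinery upstream 25 were higher with a median of 0.030. There Map2k6, a kinase of p38, was at -0.25, Nfatc3 at 0.17 and the CREB coactivator Crtc3 at 0.15. Only 1 of these 35 had a wide spread, and their median SD was 0.12, against 0.31 for the immediate early members. Of 17 genes that respond to contractile activity 11 were higher and 8 had a wide spread, among them Ankrd1 (SD 0.60), a sarcomere stress protein whose own-diet difference was -0.52, while Pdk4, which curbs glucose oxidation, was at 0.29 and the glucose transporter Slc2a4 at -0.19. Limma adjusted p for the named genes ran from 0.547 to 0.778.

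Genes that followed the members from animal to animal were ranked by Pearson's r, over 18 animals, to a score that averages the members' scaled deviations from their group means. All 10 values are a description, since the score is made of the members. Nr4a2 (r = 0.84), the third NR4A receptor, was the closest, with a within-group SD of 0.68. Atf3 (r = 0.82, SD 0.61), a stress-induced bZIP factor, Otud1 (r = 0.82, SD 0.60), a deubiquitinase, and Ccn1 (r = 0.77, SD 0.52), a matrix protein that growth factors induce, also varied widely. The other 6 varied less, with SDs of 0.11 to 0.21. These were Agtrap (r = 0.82), which binds the angiotensin II receptor, the chloride channel Ano1 (0.81), the lysosomal Laptm4b (0.80), the insulin signalling adaptor Irs2 (0.78), the collagen-modifying Crtap (0.77) and the aldehyde dehydrogenase Aldh3a1 (0.77). On the lists above, Nr4a2 and Atf3 stood among the transcription factors and Ccn1 among the signalling genes. Their own-diet differences were 0.45 for Nr4a2, 0.40 for Atf3, 0.32 for Otud1 and 0.034 for Ccn1, with limma adjusted p of 0.815, 0.815, 0.859 and 0.989.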

How the data were processed

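The RNA of 18 muscles was measured on 18 arrays. The deposited table holds 1 intensity on a linear scale per probe set (20917) and array, made with Affymetrix Expression Console and PLIER per the submitters' processing notes, whose versions and settings are not given in the sources used here. From it, log2(intensity + 16) was taken and quantile normalized with limma 3.58.1 (R 4.3.3). Symbols came from GEO's platform annotation (18197 probe sets with 1 symbol, 960 with several, 1760 with none). Probe sets with 1 symbol, 1 per gene by highest mean and above the 25th percentile of genes, left 12642 genes. A group-means fit over all 18 arrays (lmFit, eBayes) gave 7 two-sided comparisons, each adjusted by Benjamini-Hochberg over all 12642 genes at 0.05, with 95% intervals. Member pairs were tested with 100000 permutations within groups. For arrays there is no read depth, and their number limits the precision.

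The members, lists, markers and comparisons were chosen with earlier results of these data known. All 10 members are named. Of each related list the 3 genes of smallest p in the own diet average are named, and the 10 genes that are no member with the highest correlation to the members' score. Promoters and genes were matched by symbol to RefSeq GRCr8 tables, which held 6 of the 10 promoters. Replicate numbers follow record order and pair nothing; animals with neighbouring numbers were joined only in an alternative. Over 32 pairs of arrays of 1 group the log2 difference had an SD of at least 0.187, so no pair was identical. The scripts were tested on simulated data of known answers. Alternatives tried were the table as deposited, centring on array medians, offsets of 1 and 64, no filter and the 50th percentile, trended and robust eBayes, array weights, the well column and neighbouring animal numbers as blocks, the groups alone, leaving out the 2 arrays of lowest median, and leaving out each array.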

Additional observations from a re-analysis of the deposited data

Results flagged for a closer look

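In 2 of the 40 combinations of a member and a group, 1 animal lay further from the others than Dixon's 95% limit allows. By chance alone about 5% of the combinations would be flagged, so 2 flags are no more than chance gives. Fosb in chow/chow replicate 4 was at 5.67 log2, with the next animal at 5.31. Nr4a3 in chow/high-fat replicate 1 was at 7.21 log2, with the next animal at 6.10. The same 2 animals were also the highest of their groups for Fos.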

How the results depend on the processing

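After adjustment, no member passed the threshold in any of the 7 comparisons under any alternative that was run, leaving out each array included, and the smallest limma adjusted p of a member among the alternatives other than leaving out single arrays was 0.147, in the interaction. The median difference of the members for the own diet in the chow lineage ran from -0.086 to 0.19 over settings other than leaving out single arrays, and that for the grandpaternal diet at own high-fat from -0.10 to 0.22. Estimates near 0 changed sign. For the grandpaternal average this held for the table as deposited (Jun 0.033, Junb 0.0080, Dusp1 0.031), array weights (Dusp1 0.058), the well column as a block (Jun 0.000618, Nr4a1 -0.0031) and the fit without the 2 arrays of lowest median (Nr4a1 -0.0044). For the own diet average it held for neighbouring animals as a block (Jun -0.0024). Leaving out 1 array each moved the grandpaternal average of Dusp1 from -0.083 to 0.084, of Fos from -0.39 to 0.040, of Jun from -0.049 to 0.025 and of Nr4a1 from -0.038 to 0.070. It moved the own diet average of Jun from -0.041 to 0.033 and of Nr4a1 from -0.026 to 0.083. The number of member pairs that passed ran from 1 to 10 with 1 array left out and was 0 when the 2 dimmest arrays (by median) were left out; the cause was not tested. The number of members with a wide spread ran from 5 to 7. No member had a second probe set, so another choice of probe set was not run. The labels carry no shared replicate numbers. Neighbouring animal numbers, which the labels do not explain, join animals of both own diets within a lineage, and as a random block (consensus correlation 0.126) they changed no call and left Fos at 0.56 and Egr1 at 0.42 for the own diet average. Dim probe sets such as Fosb, Egr3 and Nr4a3 limit what can be seen, since their changes are compressed on this scale.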
